A study of Mus musculus with 6 samples.

Results

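Prostaglandin synthesis and prostaglandin receptors were followed through 10 genes, which were taken by gene name from the 49671 genes of the deposited tables and read in all 6 libraries. They are the cyclooxygenases Ptgs1 and Ptgs2, the terminal synthases Ptges, Ptges2, and Ptgis, the catabolic enzyme Hpgd, and the receptors Ptger1, Ptger2, Ptger4, and Ptgfr. The libraries came from muscle satellite cells (MuSCs), which renew injured muscle fibers, taken from female C57BL/6 mice aged 4 to 6 months. All 6 mice received 50 μL of 1.2% BaCl2, which causes myofiber necrosis, in each tibialis anterior (TA) muscle, and the 2 TA muscles of a mouse were pooled at day 3. The 3 mice of the RvD1 group were injected daily into the peritoneum with 100 ng of resolvin D1 in saline with 0.1% ethanol. The 3 mice of the vehicle group received 0.1% ethanol in the same way, without resolvin D1. Resolvin D1 is a lipid mediator made from docosahexaenoic acid. MuSCs were sorted as CXCR4+ and β1-integrin+ cells that lacked CD45, CD11b, Sca-1, and Ter119 (the sample labels add CD31), and no uninjured MuSCs were analysed here. The question was whether prostaglandin genes of MuSCs differed between RvD1 and vehicle.

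Prostaglandins are made from arachidonic acid, which the cyclooxygenases COX-1 (Ptgs1) and COX-2 (Ptgs2) convert to the common precursor PGH2. Terminal synthases then turn PGH2 into PGE2, prostacyclin, and the other prostanoids, and Hpgd begins their inactivation. PGE2 acts through the receptors EP1 to EP4, of which EP2 and EP4 raise cAMP, and PGF2α acts through FP (Ptgfr). In injured muscle PGE2 is known to act on MuSCs through EP4 and to support their expansion, and cyclooxygenase inhibitors are known to impair myogenesis.

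Total expected counts were 17962025 to 28149176 per library with RvD1 and 16148026 to 18755643 with vehicle, so that 3 counts, the floor used here, equaled 0.107 to 0.186 CPM (counts scaled to a common library total, with TMM factors). Summed TPM (the deposited values scaled for transcript length and library total) of 8 myogenic markers was 2991 to 3767 with RvD1 and 2763 to 3119 with vehicle. Myog was at 818 to 1378 TPM, Myod1 at 239 to 470 TPM, and Pax7 at 4.03 to 8.50 TPM over the 6 libraries. RvD1 replicate 1 lay at −51.8 on the first principal component (37.7% of the variance), against −8.50 to 27.4 for the other 5 libraries. That library also had the highest summed TPM of 8 fibro-adipogenic markers (2253, against 961 to 1317 in the others) and of 7 mural markers (623, against 306 to 457). Most of each mural sum was Acta2 alone, at 512 TPM in that library and 249.6 to 378 TPM in the others. Summed leukocyte markers, 12 in all, reached 40.8 to 63.2 TPM with RvD1 and 56.8 to 93.7 TPM with vehicle. Replicates were separate mice, and reads carry no molecular identifiers, so floors cover counting error only.

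Of the 10 genes, 9 had enough counts to be tested and 0 of these had an adjusted p under 0.05 (quasi-likelihood test of edgeR, adjusted by Benjamini-Hochberg over 14494 genes), and their adjusted p values were 0.971 to 0.995. Over all genes tested, 0% passed this threshold. At an unadjusted p under 0.05 the count was also 0 of 9, where 3.47% of all genes passed, and DESeq2 and limma-voom likewise gave 0 of 9 at either threshold. The RvD1 and vehicle libraries overlapped in CPM for all 9, whereas 9.62% of all genes had groups that did not overlap. The log2 fold change (RvD1 minus vehicle) was positive for 5 and negative for 4 of the 9 genes, with a median of 0.04, and 53.5% of all genes were positive, with a median of 0.01. It exceeded 1 in size for 0 of the 9 and for 1.6% of all genes. The 95% interval lay within 1 of 0, that is within a 2-fold difference in either direction, for 7 of the 9, the exceptions being Ptgs1 and Ptger1.

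**Figure D1:**
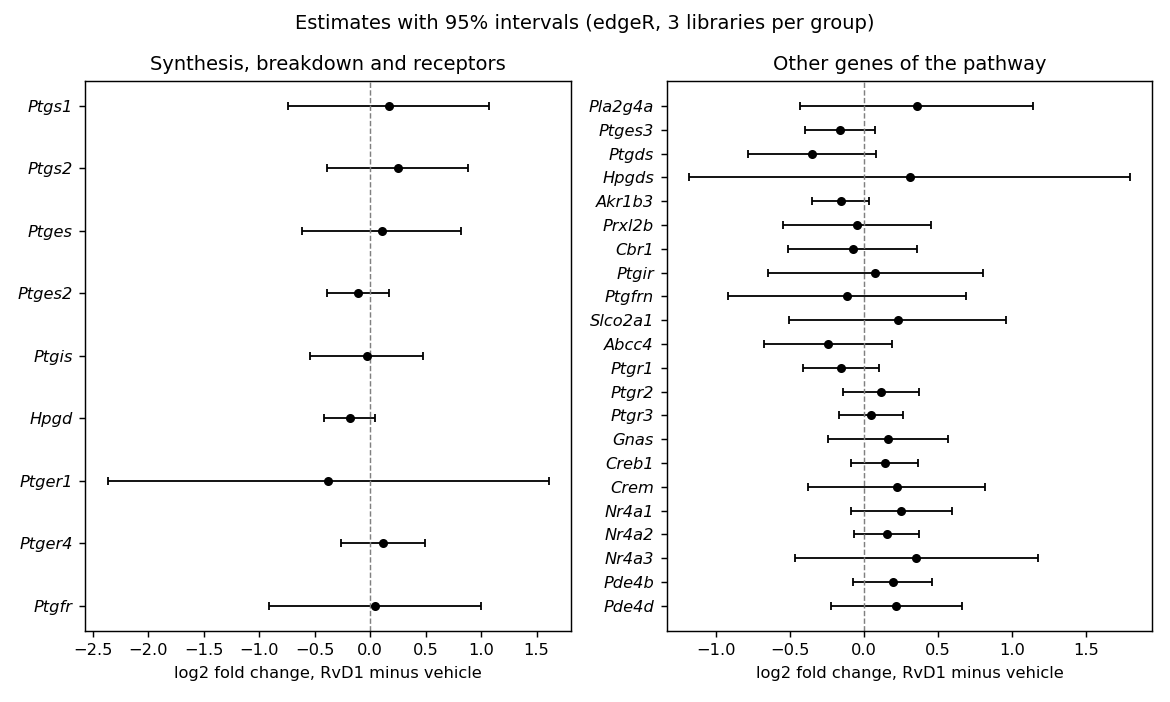
Points show the log2 fold change (x axis, RvD1 minus vehicle, edgeR) of the 9 tested prostaglandin genes (left) and of the 22 tested genes of the wider pathway (right), with bars for the 95% interval. Every interval includes 0, the narrowest on the left is that of Hpgd (−0.42 to 0.04), and the widest is that of Ptger1 (−2.37 to 1.61).

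The cyclooxygenase transcripts were low in every library, with Ptgs2 above Ptgs1. Ptgs2 (ENSMUSG00000032487, chromosome 1, 150100031 to 150108227, GRCm38), the inducible enzyme, was at 3.88, 2.70, and 1.80 TPM with RvD1 (replicates 1, 2, and 3) and at 2.03, 2.13, and 2.5 TPM with vehicle. The highest and the lowest value were both in the RvD1 group, which spanned the vehicle group. In CPM, Ptgs2 was at 7.37 ± 2.64 (SD, n = 3) with RvD1 and 6.22 ± 0.817 (SD, n = 3) with vehicle, and its log2 fold change was 0.25 (standard error 0.28, 95% interval −0.39 to 0.88). Without RvD1 replicate 1 the estimate was −0.03. Ptgs1 (ENSMUSG00000047250, chromosome 2, 36230426 to 36252272), the constitutive enzyme, had 16 to 32 counts per library. Its level was 0.80, 0.80, and 1.11 TPM with RvD1 and 0.75, 0.70, and 0.50 TPM with vehicle. The groups did not overlap in TPM but did in CPM, where RvD1 replicate 2 had 0.892 and vehicle replicate 1 had 1.24, and the log2 fold change on counts was 0.17 (standard error 0.40, 95% interval −0.74 to 1.07).

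The sequences upstream of both cyclooxygenase genes are shown because the transcripts of these enzymes of like function differed in level. They are the 250 bases before the RefSeq start (GRCm38.p6), 5′ to 3′ on the strand of the gene, at chr2:36230176-36230425 (+) and chr1:150099781-150100030 (+). Capitals mark matches to a GC box (GGGCGG, or CCGCCC on the opposite strand).
Ptgs1: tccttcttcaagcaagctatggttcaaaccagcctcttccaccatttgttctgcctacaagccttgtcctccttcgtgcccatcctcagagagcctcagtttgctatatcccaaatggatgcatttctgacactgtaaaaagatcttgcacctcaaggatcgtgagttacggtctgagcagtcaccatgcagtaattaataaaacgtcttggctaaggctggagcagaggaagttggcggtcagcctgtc
Ptgs2: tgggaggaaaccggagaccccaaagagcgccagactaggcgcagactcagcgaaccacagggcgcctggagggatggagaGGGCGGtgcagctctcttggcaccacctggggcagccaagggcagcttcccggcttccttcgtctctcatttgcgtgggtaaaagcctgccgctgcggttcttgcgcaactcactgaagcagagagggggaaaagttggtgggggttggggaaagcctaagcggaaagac
The Ptgs1 stretch was 48.0% G and C and held no match, and the Ptgs2 stretch was 61.6% G and C and held 1 GC box. Neither held the cAMP response element half-site TGACG, the E-box CACGTG, or the TATA box letters TATAAA on either strand. Of 32851 RefSeq promoters of this length, 32.7% held the GC box, 17.8% TGACG, 6.02% CACGTG, and 12.4% TATAAA. A match, or its absence, describes only the letters of this window.

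Ptgs2 made up most of the cyclooxygenase TPM in every library. Its share of summed Ptgs1 and Ptgs2 TPM was 82.9%, 77.1%, and 61.9% with RvD1 and 73.0%, 75.3%, and 83.3% with vehicle. The mean share was 74.0% ± 10.9 (SD, n = 3) with RvD1 and 77.2% ± 5.42 (SD, n = 3) with vehicle, a difference of −3.24 percentage points that was smaller than either SD (p = 0.8 in a two-sided exact permutation test, which cannot go below 0.1). Without RvD1 replicate 3 the difference was 2.82 percentage points, of the opposite sign.

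Among the terminal synthases, Ptges2 was the highest. Ptges2 (ENSMUSG00000026820, chromosome 2, 32395896 to 32405772), named for PGE2 synthase activity, was at 47.5, 64.4, and 65.6 TPM with RvD1 and at 58.5, 57.3, and 55.4 TPM with vehicle. The vehicle libraries were close to each other, at 63.1 to 64.0 CPM, and RvD1 replicate 1 alone was lower, at 48.7 CPM. The log2 fold change was −0.11 (standard error 0.12, 95% interval −0.39 to 0.17). Ptgis (ENSMUSG00000017969, chromosome 2, 167191805 to 167240604) encodes prostacyclin synthase. It was at 15.3, 18.4, and 28.2 TPM with RvD1 and at 18.5, 19.4, and 21.3 TPM with vehicle, so the RvD1 libraries again lay on both sides of the vehicle libraries. Its log2 fold change was −0.03 (standard error 0.22, 95% interval −0.54 to 0.48).

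Ptges (ENSMUSG00000050737, chromosome 2, 30889471 to 30929863), the inducible microsomal PGE2 synthase, was measured less surely. Its level was 1.94, 1.49, and 1.07 TPM with RvD1 and 0.76, 2.34, and 2.62 TPM with vehicle, while its expected counts were 49, 77, and 34 and 27, 34, and 51. On counts the log2 fold change was 0.10 (standard error 0.31, 95% interval −0.61 to 0.82), and on log2(TPM + 1) it was −0.16. Deposited TPM are divided by a length that RSEM sets from the transcripts to which reads were assigned, and Ptges has 4 annotated transcripts of 446 to 3647 bases. Counts per TPM, an implied length, varied 2.75-fold between libraries for Ptges. Background values came from 9767 genes with at least 100 counts and more than 1 TPM in every library. Their median was 1.08-fold and their 95th percentile 1.41-fold. Ptger1 (3.58-fold), Ptgfr (1.83-fold), and Ptgs1 (1.5-fold) also exceeded that percentile, and the other 6 genes varied 1.2-fold or less. Ptges, Ptger1, Ptgfr, and Ptgs1 had fewer than 100 counts in every library. The background genes were better counted, so whether these spreads are unusual for their counts was not tested.

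**Figure D2:**
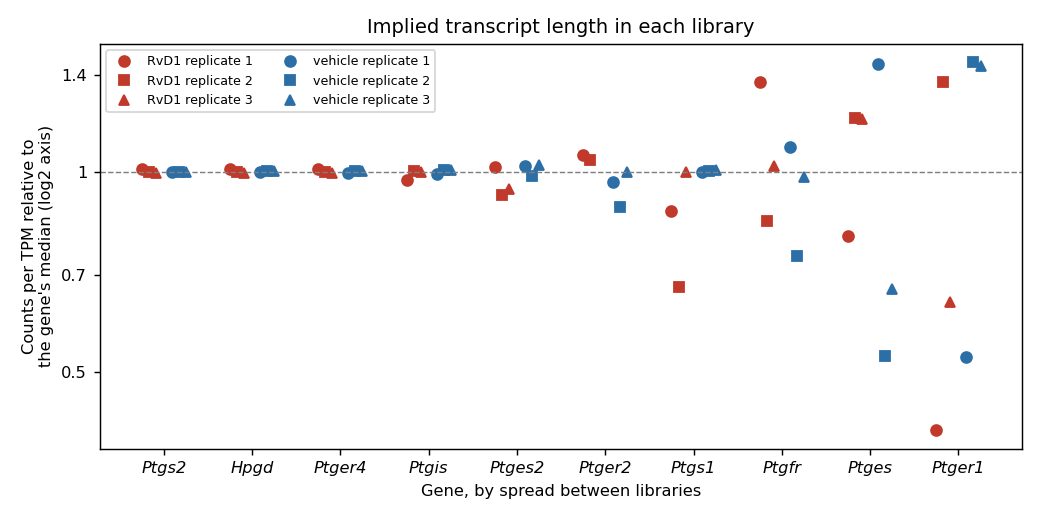
Points show expected counts per TPM in each library (y axis, log scale, each gene divided by its own median) for the 10 genes (x axis), by group (color) and replicate (shape), without RvD1 replicate 3 for Ptger2, which had 0 counts. Ptgs2, Hpgd, and Ptger4 vary 1.01-fold to 1.02-fold, whereas Ptges and Ptger1 vary 2.75-fold and 3.58-fold.

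Hpgd (ENSMUSG00000031613, chromosome 8, 56294585 to 56321043) encodes 15-hydroxyprostaglandin dehydrogenase, which inactivates PGE2, and was the most abundant and most precisely measured of the 10 genes. Its level was 92.3, 113, and 101 CPM with RvD1 and 111, 118, and 120 CPM with vehicle. RvD1 replicates 1 and 3 were below every vehicle library and RvD1 replicate 2 was above vehicle replicate 1. The mean was 102 ± 10.6 CPM (SD, n = 3) with RvD1 and 116 ± 4.52 CPM (SD, n = 3) with vehicle. The log2 fold change was −0.19 (standard error 0.10, 95% interval −0.42 to 0.04, unadjusted p = 0.0982, adjusted p = 0.971 by edgeR), which spans 0.750-fold to 1.03-fold. It kept its sign with each library left out, from −0.27 to −0.12. The unadjusted p was 0.0353 (edgeR, adjusted p = 0.725) without RvD1 replicate 2, the only RvD1 library that overlapped the vehicle libraries. In that setting 6.83% of all genes had an unadjusted p under 0.05. In TPM the values were 97.4, 113, and 105 with RvD1 and 112, 113, and 115 with vehicle.

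The PGE2 receptor transcripts were mostly Ptger4. Ptger4 (ENSMUSG00000039942, chromosome 15, 5206661 to 5244187), which encodes EP4, was at 8.70, 6.73, and 6.03 TPM with RvD1 and at 6.56, 6.13, and 6.10 TPM with vehicle. In CPM the vehicle libraries were close, at 12.8 ± 0.140 (SD, n = 3), and the RvD1 libraries lay on both sides of them, at 13.8 ± 2.46 (SD, n = 3). The log2 fold change was 0.11 (standard error 0.17, 95% interval −0.27 to 0.49), and −0.03 without RvD1 replicate 1. Other annotated genes on the opposite strand, mainly the pseudogene Gm15937, cover 16.5% of its exon bases, and the cDNA and library kits named in the labels do not keep the strand, although the study's methods call the data single-stranded. Reads of the 2 strands may therefore not be told apart there. Ptger2 (ENSMUSG00000037759, chromosome 14, 44988195 to 45003820), which encodes EP2, was at or near the floor and was not tested. It had 1, 2, and 0 expected counts with RvD1 and 6, 1.09, and 1.31 with vehicle. The 0 in RvD1 replicate 3 allows a level of up to 0.166 CPM, and only vehicle replicate 1 exceeded its floor (0.372 against 0.186 CPM).

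The upstream stretches of both cAMP-coupled receptor genes are shown because the level of Ptger4 was far above that of Ptger2. They are at chr14:44987861-44988110 (+) and chr15:5244188-5244437 (−), written and marked as for the cyclooxygenases.
Ptger2: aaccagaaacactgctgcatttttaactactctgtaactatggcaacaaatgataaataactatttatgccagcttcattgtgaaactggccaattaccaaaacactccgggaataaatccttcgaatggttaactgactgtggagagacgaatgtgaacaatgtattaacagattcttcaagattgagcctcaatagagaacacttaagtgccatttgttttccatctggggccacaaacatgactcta
Ptger4: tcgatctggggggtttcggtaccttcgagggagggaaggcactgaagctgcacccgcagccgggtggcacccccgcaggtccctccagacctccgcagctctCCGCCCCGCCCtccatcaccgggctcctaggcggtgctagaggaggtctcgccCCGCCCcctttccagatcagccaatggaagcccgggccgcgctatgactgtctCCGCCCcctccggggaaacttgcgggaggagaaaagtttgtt
The Ptger2 stretch was 38.0% G and C and matched none of the 4 motifs. Its window ends at 44988110, short of the annotated gene start at 44988195. The bases after its RefSeq start were not found in an annotated transcript, whereas those of Ptger4 were. The Ptger2 window may therefore not be its promoter. The Ptger4 stretch was 66.8% G and C and held 4 GC boxes on the opposite strand, of which 2 overlap by 1 base. Neither held TGACG. RefSeq promoters were found for 8 of the 10 genes. Of these, 5 of the 8, Ptges, Ptgs2, Ptger4, Ptgfr, and Hpgd, held the GC box, beside 32.7% of all RefSeq promoters. For Hpgd and Ptges2 too, the bases after the RefSeq start were not found in an annotated transcript.

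Ptger1 (ENSMUSG00000019464, chromosome 8, 83666678 to 83672753), which encodes EP1, varied most. It was at 1.88, 0.23, and 0.18 TPM with RvD1 and at 2.30, 0.10, and 0.12 TPM with vehicle, so that replicate 1 of both groups was high and the other 4 libraries were low. The log2 fold change on counts was −0.38 (standard error 0.88, 95% interval −2.37 to 1.61), and leaving out 1 library moved it from −1.18 (without RvD1 replicate 1) to 1.23 (without vehicle replicate 1). Ptgfr (ENSMUSG00000028036, chromosome 3, 151796502 to 151837630), the receptor for PGF2α, was at 1.38, 0.86, and 0.92 TPM with RvD1 and at 1.13, 0.93, and 1.30 TPM with vehicle. In TPM the RvD1 libraries spanned the vehicle libraries. In CPM, RvD1 replicate 1 was the highest, at 3.03, against 1.24 to 2.28 with vehicle. The log2 fold change was 0.04 (standard error 0.42, 95% interval −0.91 to 1.00), and −0.43 without RvD1 replicate 1.

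The share of Ptger4 in the summed TPM of Ptger1, Ptger2, Ptger3, and Ptger4 was 81.8%, 95.2%, and 95.7% with RvD1 and 71.5%, 97.5%, and 97.6% with vehicle. Replicate 1 of both groups was lowest, where Ptger1 was high. The mean was 90.9% ± 7.91 (SD, n = 3) with RvD1 and 88.9% ± 15 (SD, n = 3) with vehicle, a difference of 2.03 percentage points that was within the SD of both groups (p = 1 in the same exact permutation test). The difference was −6.64 percentage points without vehicle replicate 1, and also negative without RvD1 replicate 2 (−0.12) or 3 (−0.39). On expected counts the shares were 91.2%, 93.7%, and 96.7% with RvD1 and 80.3%, 96.7%, and 96.6% with vehicle. RvD1 replicate 1 was thus nearer to RvD1 replicates 2 and 3 than in TPM.

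**Figure D3:**
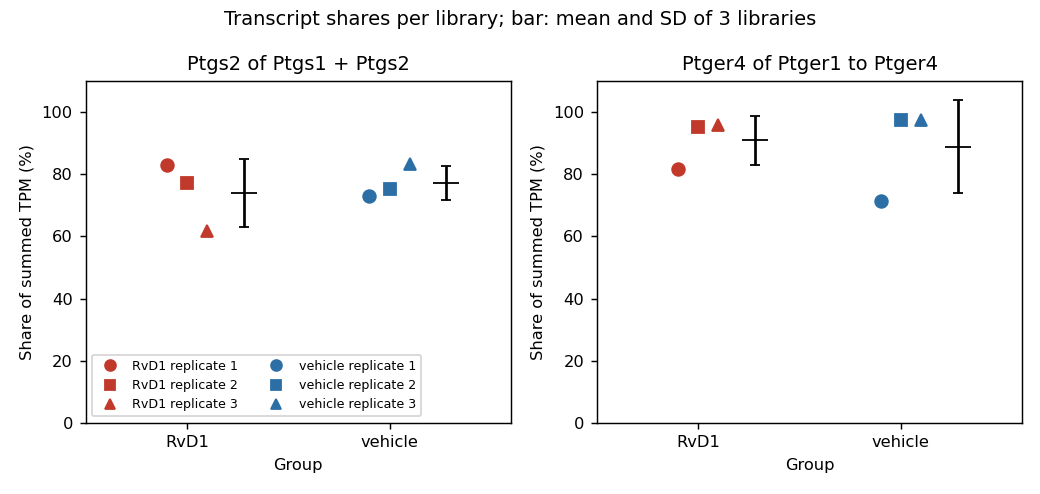
Points show the share of Ptgs2 in cyclooxygenase TPM (left) and of Ptger4 in PGE2 receptor TPM (right) for each library (y axis, %), with black bars for the group mean and SD of 3 libraries. The groups overlap in both, and replicate 1 of each group is the lowest for Ptger4 (81.8% and 71.5%).

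In order of median TPM over the 6 libraries, the levels were Hpgd 112, Ptges2 57.9, Ptgis 18.9, Ptger4 6.35, Ptgs2 2.31, Ptges 1.72, Ptgfr 1.03, Ptgs1 0.775, Ptger1 0.205, and Ptger2 0.03. The ranges over the 6 libraries did not overlap between neighbors in this order for the first 5 genes, Hpgd to Ptgs2. From Ptgs2 downward each gene overlapped its neighbor, so neighbors among the lower 6 genes were not separated by the spread between libraries, although Ptgs2 lay above Ptgfr and Ptgs1, and Ptger2 below Ptges, Ptgfr, and Ptgs1, in every library. The median level of the catabolic enzyme Hpgd was 48.5 times that of Ptgs2.

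**Figure D4:**
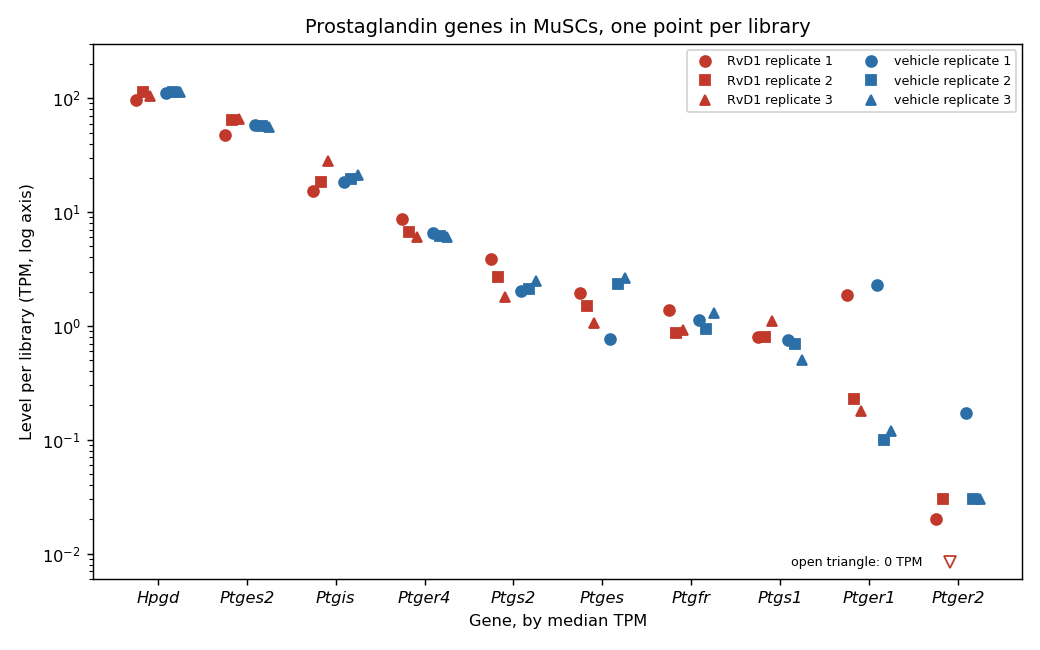
Points show TPM (y axis, log scale) of the 10 genes in each of the 6 libraries, by group (color) and replicate (shape), with an open triangle for 0 TPM. Hpgd lies between 97.4 and 115 TPM and Ptger4 between 6.03 and 8.70 TPM, whereas Ptger1 spreads from 0.10 to 2.30 TPM with replicate 1 of both groups on top.

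The spread between libraries was compared between the groups. The SD of log2 CPM was larger with RvD1 than with vehicle for 7 of the 9 tested genes, and for 69.6% of all 14494 genes. RvD1 replicate 1 was the highest of the 6 libraries for Ptgs2, Ptger4, and Ptgfr and the lowest for Ptges2, Ptgis, and Hpgd. It was thus at an extreme for 6 of the 9, as it was for 60.1% of all genes. RvD1 replicate 3 was at an extreme for 6 of the 9 and for 36.2% of all genes. The highest fibro-adipogenic and mural marker sums were in RvD1 replicate 1 as well, and their part in these levels was not tested.

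Other genes of the pathway were taken as 27 genes in 4 lists, of which 22 were tested and 0 passed an adjusted or an unadjusted p of 0.05. Their log2 fold change was positive for 14 and negative for 8, with a median of 0.13, and the groups did not overlap in CPM for 3 of the 22, beside 9.62% of all genes. Of 7 tested genes for arachidonic acid release and other synthases, 2 were positive and 5 negative (median −0.08). The largest values were those of Pla2g4a, the phospholipase that frees arachidonic acid, at 0.35 (standard error 0.35), and of Ptgds, a prostaglandin D2 synthase, at −0.35 (standard error 0.19). Ptgds was at 7.42, 11.4, and 10.04 CPM with RvD1 and at 12.8, 11.8, and 12.4 CPM with vehicle, so its groups did not overlap, and its unadjusted p was 0.0952 (edgeR, adjusted p = 0.971). Of the 6 other receptors, 2 were tested, with a median of −0.02, and Ptgdr had 0 counts in every library. For transport and breakdown, 3 of 5 genes were positive and 2 negative (median 0.05), and the exporter gene Abcc4 had the lowest value, −0.25 (standard error 0.19). When 2 surrogate variables were removed from limma-voom values, 2 of 26 pathway genes passed an adjusted p of 0.05. They were Gnas (log2 fold change 0.10) and Tbxa2r (0.96), named after their values were seen. Tbxa2r had only 13, 7, and 6 counts with RvD1 and 3, 2, and 3 with vehicle, too few for the main test. In that fit 1727 of all 26518 genes passed, and 25.3% had an unadjusted p under 0.05. Its test does not count the removed variables, so its p values may be too small.

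Below EP2 and EP4, all 8 genes of cAMP and CREB signaling had a positive log2 fold change, with a median of 0.20, although 0 of 8 passed an unadjusted p of 0.05. Nr4a3, an immediate-early gene of CREB, had the largest value, 0.35 (standard error 0.36). It was at 7.47, 4.50, and 2.66 CPM with RvD1 and at 3.47, 4.598, and 3.42 CPM with vehicle, so the highest and the lowest library were both of the RvD1 group. RvD1 replicate 1 was the highest library for each of the 8 genes, and for 30.6% of all genes. Without it, 4 of the 8 were positive, Creb1, Nr4a1, Nr4a2, and Pde4b at 0.05 to 0.12, and 4 were negative, Gnas, Crem, Nr4a3, and Pde4d at −0.20 to −0.03.

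**Figure D5:**
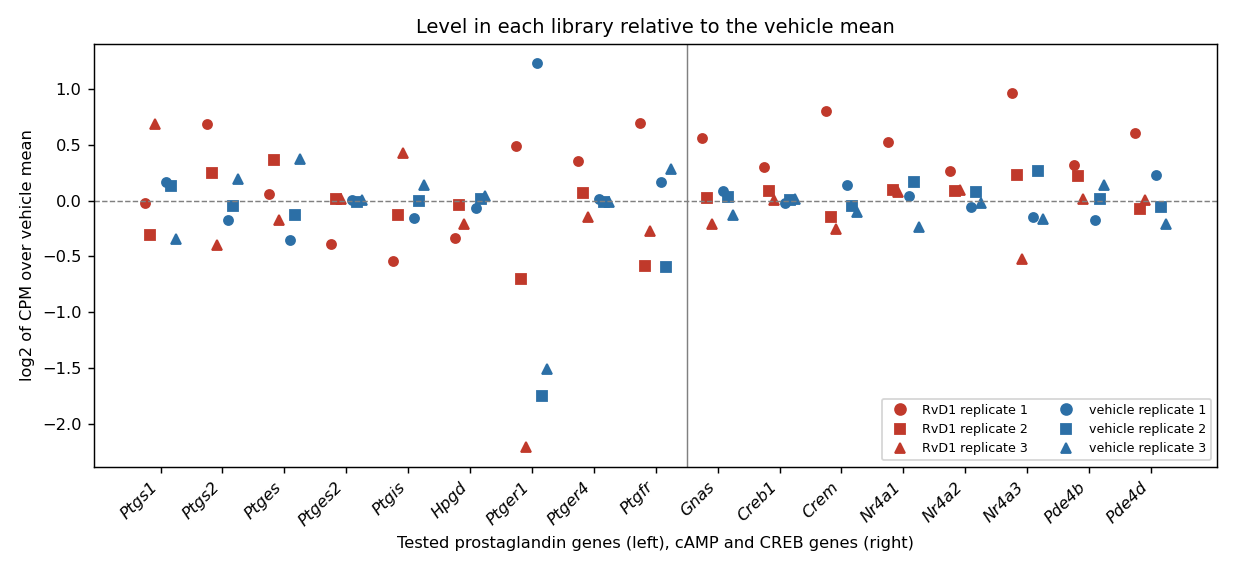
Points show log2 of CPM over the vehicle mean (y axis) in each library for the 9 tested prostaglandin genes (left) and the 8 cAMP and CREB genes (right), by group (color) and replicate (shape). RvD1 replicate 1 is on top for all 8 genes on the right and for Ptgs2, Ptger4, and Ptgfr on the left. RvD1 replicates 2 and 3 are both above every vehicle library for Nr4a2 alone among the genes on the right.

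Across the 6 libraries, the genes most like Ptgs2 in log2 CPM were Snrk (Pearson r = 0.996), Nabp2 (0.992), and Gas5 (0.987), and 165 genes had an r above 0.9. Those most like Ptger4 were Zfp59 (0.994), Nbea (0.990), and Spsb1 (0.989), with 361 genes above 0.9. These values are descriptions over 6 libraries that include RvD1 replicate 1, which was the highest library for Ptgs2, Ptger4, and each of these 6 genes.

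Markers of other cell types were present at very different levels, and 0 of them passed an adjusted p of 0.05. Of 11 leukocyte markers tested, 10 had a negative log2 fold change, 3 of them at an unadjusted p under 0.05 (edgeR). Of all genes tested, 3.47% had such a p. Over the 6 libraries Ptprc was at 0.08 to 1.13 TPM, Itgam at 0.17 to 0.80 TPM, and Adgre1 at 0.22 to 1.48 TPM. The most abundant of this list, Lyz2, was at 17.6 to 34.3 TPM with RvD1 and 27.6 to 61.1 TPM with vehicle. Of the 8 endothelial markers 7 were negative, with Pecam1 at 0.25 to 3.61 TPM and Cdh5 at 0.02 to 1.02 TPM. Of the 8 fibro-adipogenic markers 7 were positive, with the receptor gene Pdgfra at 1.57 to 3.55 TPM and the matrix genes Dcn and Col3a1 far higher, at 182 to 450 TPM and 401 to 806 TPM, both highest in RvD1 replicate 1. The exception, Ly6a, which encodes Sca-1, was at 17.3 to 25.4 TPM with RvD1 and 26.3 to 39.7 TPM with vehicle (edgeR, unadjusted p = 0.0141, adjusted p = 0.971). All 7 mural markers were positive, with Pdgfrb at 11.3 to 29.4 TPM, Rgs5 at 9.5 to 21.0 TPM, and Acta2 at 249.6 to 512 TPM. The log2 fold change of Pdgfrb was 0.66 (edgeR, unadjusted p = 0.0358, adjusted p = 0.971). Lyz2, Dcn, Col3a1, and Acta2 were named after their values were seen. Summed erythroid markers were at 11.4 to 95.7 TPM. In these bulk libraries, fewer cells of a type and less RNA per cell cannot be told apart. Whether the marker transcripts came from other cell types or from the MuSCs themselves was not tested. The part of other cell types in the prostaglandin transcripts was not tested either.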

How the data were processed

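RNA-Seq was performed by the authors on sorted MuSCs, 1 library per mouse, as 76-bp single-ended reads from SMART-Seq cDNA. Per the submitters' processing notes, STAR 2.5.0a, RSEM, and mm10 were used. The deposited expected counts are what RSEM assigned to each gene, without depth scaling, and the deposited TPM are relative to transcript length and to a common library total, as the authors computed them. The deposited FPKM were not used.

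The 10 genes and the pathway and marker lists were chosen with earlier results of these data known, so their choice lends no independent support. Prxl2b and Ptgr3 were read under their older names, Fam213b and Zadh2. All 10 genes are described, and of the pathway genes those with an unadjusted p under 0.05 and the 2 largest and 2 smallest log2 fold changes are named.

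Expected counts were rounded and tested with edgeR 4.0.16 in R 4.3.3 (TMM, filterByExpr, quasi-likelihood test, Benjamini-Hochberg adjustment over 14494 genes, threshold 0.05). Standard errors are the log2 fold change divided by the square root of the F statistic. Shares were compared by exact permutation in SciPy. Alternatives used DESeq2 1.42.0, limma 3.58.1, and sva 3.50.0, and the tests were tried on simulated data. Surrogate variables, which the study's own procedure removes from voom values, were 1 in 7 and 2 in 3 of 10 random seeds, so both were run. Positions and overlaps came from GENCODE M21 (GRCm38) and promoters from RefSeq. Gene overlaps of Ptger1 are not reported here.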

Additional observations from a re-analysis of the deposited data

How the results depend on the processing

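In every setting tried, 0 of the 10 genes had an adjusted p under 0.05, and of 144 alternative log2 fold changes for the 9 tested genes 115 kept their sign and 29 did not. Hpgd alone kept its sign throughout. Its smallest adjusted p was 0.051 (limma-voom with 2 surrogate variables removed). That fit, whose p values may be too small, alone called pathway genes, 2 of 26 (Gnas and the low-count Tbxa2r), among 1727 of 26518 genes. With 1 surrogate variable removed, a setting chosen after seeing the data, it called 0 of all genes.

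On log2(TPM + 1) and log2(TPM + 0.1), the sign turned for Ptges (−0.16 and −0.20), Ptges2 (0.037 and 0.037), Ptgis (0.021 and 0.020), Ptger1 (0.013 and 0.26), and Ptgfr (−0.051 and −0.097). Ptgfr was also negative by limma-voom (−0.034), with 2 (−0.16) or 1 (−0.15) surrogate variables removed, and with a replicate block (−0.0025). Ptgis was at 0.000102 with library totals only and 0.0044 with 1 surrogate variable removed. With 1 library left out, the log2 fold change ranged from −0.16 to 0.37 for Ptgs1, −0.030 to 0.48 for Ptgs2, −0.057 to 0.34 for Ptges, −0.17 to 0.014 for Ptges2, −0.32 to 0.17 for Ptgis, −1.18 to 1.23 for Ptger1, −0.031 to 0.22 for Ptger4, and −0.43 to 0.29 for Ptgfr. The cause of these shifts was not tested.

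Of the 8 cAMP and CREB genes (a count chosen after seeing the data), 4 to 8 were positive with 1 library left out, 4 without RvD1 replicate 1, and 7 or 8 in the other settings. With 1 library left out, the difference in share ranged from −7.71 to 2.82 percentage points for Ptgs2 and from −6.64 to 6.59 for Ptger4, so the sign changed for both. Each shift was smaller than the larger of the SDs of the 2 groups, though 2 of them exceeded the smaller. On expected counts they were −0.674 and 2.67.

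Replicate numbers recur in both groups. After subtraction of the group means, same-numbered libraries correlated at 0.31, −0.0007, and 0.13, and differently numbered ones at −0.25 to 0.17. The value of the replicate 1 libraries, 0.31, was the highest. Same-numbered libraries were not treated as paired in the main test, and whether the replicate 1 libraries shared a batch was not tested. With a replicate block, 0 members and 0 pathway genes were called (smallest adjusted p 0.791), and the shares differed by −3.24 and 2.03 percentage points. At these depths, Ptger2 cannot be compared between groups.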
